A study of Chlamydomonas reinhardtii with 21 samples.

Results

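UVM11 is an expression strain of the green alga Chlamydomonas reinhardtii, a UV-induced mutant that carries the srta-1 mutation in the gene of the sirtuin SRTA and expresses introduced genes well. The strain was grown and sequenced in 2 culture batches, and the 7 UVM11 cultures are described here, 4 of batch 1 (cultures 1 to 4) and 3 of batch 2 (cultures 5 to 7), out of 21 cultures in all. The genes compared are the 15425 of 17741 genes whose FPKM (fragments scaled by transcript length and library depth) averaged above 0.1 over the 21 cultures, and 2316 genes were left out by this rule. Batch 1 also held 4 cultures of Elow47, the progenitor of UVM11 with the wild-type allele of SRTA, and 4 of UVM4, a second UV mutant of Elow47 with the srta-2 mutation. Batch 2 also held 3 cultures each of UVM11-C1 and UVM11-C9, which are UVM11 lines given the wild-type SRTA allele. Per the study, the introduced SRTA sequence carried a FLAG tag and came with a hygromycin resistance gene. Both complemented lines had been kept on medium with hygromycin before the RNA-seq. All of these strains descend from the cell wall-deficient, arginine-requiring strain CC-4350 and carry the CRY1-1 and ARG7 transgenes of Elow47, and each mutant or complemented line is a single clone. Per the labels every culture was grown in the same acetate medium under continuous light. The repeated UVM11 cultures address how far levels differ between batches within 1 strain. Any change of strain stock, culture, harvest, library or sequencing between the batches cannot be told apart.

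Sirtuins are NAD-dependent deacetylases, and SRTA is the family member whose gene is mutated in UVM11. Chlamydomonas cells acclimate to the supply of inorganic carbon, and when CO2 is scarce they induce a carbon-concentrating mechanism, whose parts include transporters, carbonic anhydrases and other low-CO2-inducible proteins. The plasma membrane H+-ATPase pumps protons out of the cell and energises transport across this membrane. Gene names are given only where the sources used here pair them with an identifier, and most genes are therefore given by identifier and position in assembly v5.5.

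The 7 libraries had similar FPKM sums, numbers of genes at 0 and relative depths, but correlated less between than within the batches. The FPKM values summed to between 542464 and 590514 per UVM11 library, and 1492 to 1665 of 17741 genes were listed at 0. FPKM is already scaled by library depth, so near-equal sums are largely set by the scaling. The steps between the lowest values placed the depths of these libraries between 0.891 and 1.13 times the mean library, and 95.7% of the low values lay within 0.15 of a whole multiple of a step. Pearson's r of log2(FPKM + 1) across genes was 0.998 within batch 1 (6 pairs), 0.996 to 0.998 within batch 2 (3 pairs) and 0.971 to 0.980 between the batches (12 pairs), and genes are not independent replicates. No library pair of 210 had identical values.

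The mutated gene itself was transcribed in both batches. SRTA (Cre10.g462200, chromosome 10, 5935593 to 5941064) had 3.28, 3.71, 3.34 and 3.71 FPKM in cultures 1 to 4 and 2.92, 2.65 and 2.83 FPKM in cultures 5 to 7. The cultures of batch 2 lay below all those of batch 1, but the difference of -0.31 ± 0.10 on the log2 scale did not pass the test (adjusted p = 0.0146, limma). In the complemented strain UVM11-C1 SRTA was at 5.19 ± 0.403 FPKM (SD, n = 3). A point mutation leaves the transcript in place, so this level does not check the label.

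UVM11 of batch 2 differed from UVM11 of batch 1 in 640 genes that were higher and 166 that were lower. These calls required a fold change over 2 and an adjusted p below 0.01 in limma on log2(FPKM + 0.1). They made up 4.15% (higher) and 1.08% (lower) of the 15425 genes tested. The median difference over all tested genes was 0.00 on the log2 scale, with 5% of genes below -0.65 and 5% above 0.92. Small shifts were widespread, since 21.6% of genes were higher and 22.0% lower at an adjusted p below 0.01 when no fold was required. In 28.5% of genes all cultures of batch 2 lay above all those of batch 1, and in 29.5% they lay below. In bulk cultures, fewer cells expressing a gene and less RNA per cell cannot be told apart.

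The genes that rose did so over a far wider range than those that fell. Of the 640 higher genes, 475 rose by less than 2 on the log2 scale, 62 by more than 3 and 23 by more than 5, whereas only 28 of the 166 lower genes fell by more than 2. The median was 1.44 for the higher and -1.26 for the lower genes. Both sets were of lower level than the rest, with a median of 2.496 FPKM over the 7 cultures for the higher, 2.155 FPKM for the lower and 5.802 FPKM for the genes not called. Of the 718 genes above 100 FPKM in either batch, 25 rose and 2 fell. Genes could enter this set through only the batch where they were high. The counts are therefore not set against the 4.15% and 1.08% over all genes. The higher genes made up 0.538% to 0.629% of the FPKM sum in the 4 cultures of batch 1, and 3.08%, 2.02% and 2.02% in cultures 5, 6 and 7. These genes were chosen by the same contrast, so their shares are given without a test.

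The 3 genes with the largest rise went from near 0 to among the abundant transcripts. Cre04.g223100 (chromosome 4, 2662125 to 2666375) was at 0.0227, 0.168, 0.0482 and 0.0364 FPKM in batch 1 and at 1036, 731 and 715 FPKM in batch 2. The batches were thus separated by orders of magnitude, with a log2 difference of 12.31 ± 0.86 (SE, adjusted p = 6.3e-10). Cre03.g162800 (chromosome 3, 2885264 to 2887871) had 0.0735, 0.102, 0.0390 and 0 FPKM in batch 1, 1 culture being listed at 0. It reached 670.3, 274 and 242 FPKM in batch 2, a difference of 11.22 ± 0.49. Cre06.g309000 (chromosome 6, 8604782 to 8607670) rose from 0.211, 0.130, 0.0994 and 0.169 FPKM to 740.0, 328 and 359 FPKM, by 10.80 ± 0.79 on the log2 scale. In all 3 genes culture 5 was the highest of batch 2 and no culture of one batch came near the other.

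**Figure D1:**
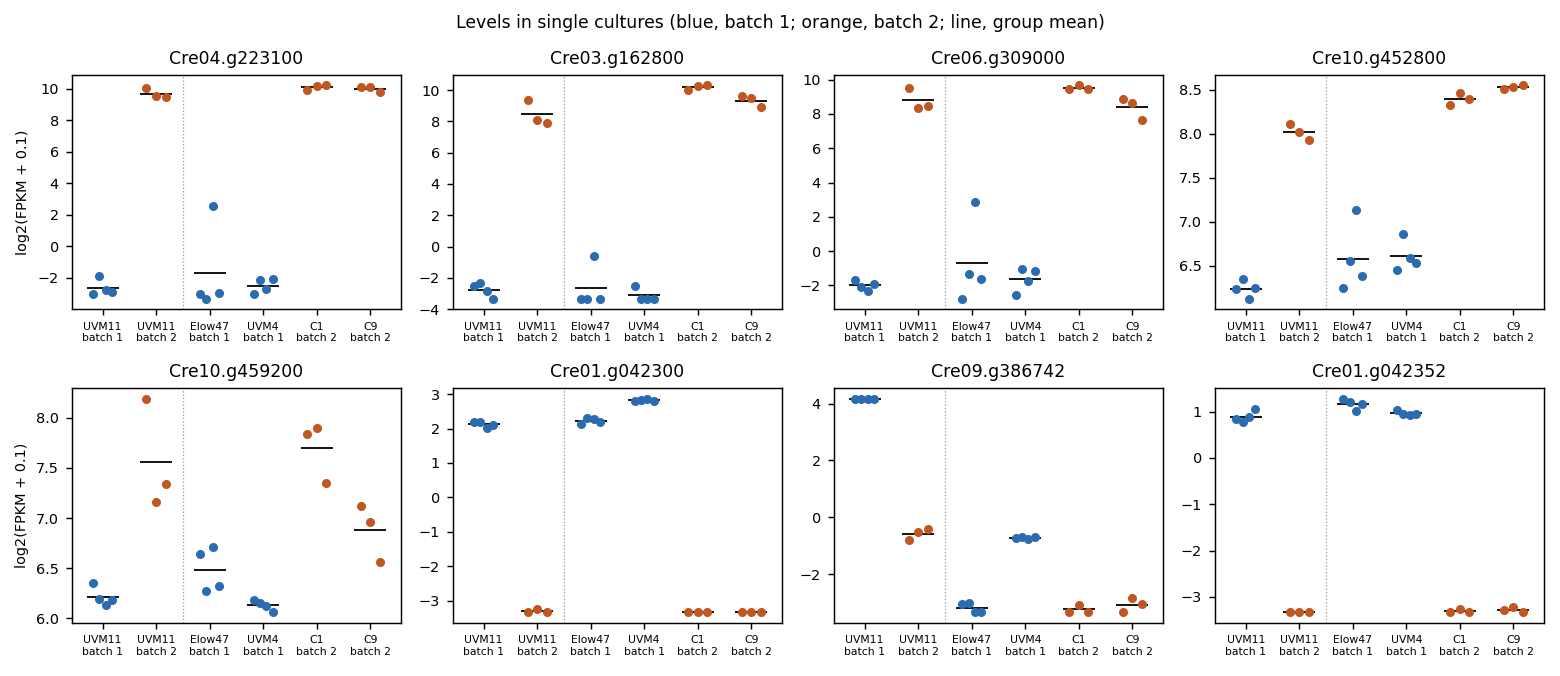
Levels of 8 genes in single cultures, as log2(FPKM + 0.1) on the vertical axis, for UVM11 of both batches (left of the dotted line) and the other 4 groups, with batch 1 in blue, batch 2 in orange and a line at each group mean. Cre04.g223100, Cre03.g162800 and Cre06.g309000 were near the floor in UVM11 of batch 1 and at 242 FPKM or more in UVM11 of batch 2, and Cre01.g042300 and Cre01.g042352 were at or near 0 in batch 2.

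Several further genes followed the same course. Cre06.g281600 rose from 0.0446–0.116 FPKM to 373, 142 and 169 FPKM, and Cre12.g555700, listed at 0 in cultures 1 to 3 and at 0.0326 FPKM in culture 4, was at 89.1, 47.3 and 55.9 FPKM in batch 2. Cre02.g097800 was expressed in both batches, at 2.77–3.38 FPKM in batch 1 and at 973, 224 and 311 FPKM in batch 2. These genes were chosen after their values were seen. All 23 genes that rose by more than 5 were highest in culture 5 among the batch 2 cultures. Their median level was 0.141 to 0.240 FPKM in cultures 1 to 4, and 126, 38.9 and 51.2 FPKM in cultures 5, 6 and 7. The 3 cultures of batch 2 thus differed among themselves in these genes, yet each was far above batch 1.

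Culture 5 was the highest of batch 2 in 419 of the 640 higher genes, culture 6 in 120 and culture 7 in 101. Without culture 5, 572 genes were higher and 160 lower. The log2 difference of Cre08.g367500 then went from 8.65 to 7.87 and that of Cre04.g223100 from 12.31 to 12.14. The median SD of a gene within a batch, on the log2(FPKM + 0.1) scale, was 0.08 in batch 1 and 0.11 in batch 2 over all tested genes, and 0.18 and 0.23 over the higher genes.

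Some of the higher genes were neighbours on the chromosome. Along the tested genes, 486 higher genes stood alone, and the others formed 65 pairs and 8 triplets, which are described without a test. On chromosome 4 the triplet Cre04.g223250, Cre04.g223300 and Cre04.g223350 (positions 2687849 to 2701502) rose together, but by different amounts. Cre04.g223300, in the middle, went from 1.02, 1.05, 0.897 and 0.659 FPKM to 843, 310.1 and 332 FPKM, a log2 difference of 8.80 ± 0.44. Its neighbours rose by 3.52 ± 0.40 (from 0.221–0.295 to 2.48–9.56 FPKM) and by 1.57 ± 0.17 (from 1.90–2.22 to 4.99–9.33 FPKM). Cre04.g223050, next to the most raised gene Cre04.g223100, rose by 1.80 ± 0.18, and here culture 6 and not culture 5 was the highest, with 11.7, 18.1 and 15.1 FPKM.

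Pairs of raised genes on chromosomes 5 and 8 moved almost in step. Cre05.g248450 was at 2.48, 2.11, 2.41 and 2.80 FPKM in batch 1 and 219, 68.1 and 74.0 FPKM in batch 2, and Cre05.g248400 at 3.14, 3.47, 3.54 and 3.70 and 236, 77.3 and 80.9 FPKM. The 2 genes thus had similar levels in each culture. Cre08.g367400 went from 0.0281–0.156 FPKM to 189, 34.4 and 51.2 FPKM, and Cre08.g367500 from 0–0.0257 FPKM to 126, 20.7 and 29.3 FPKM. If such nearby genes are near-identical copies the counting could have split reads between them, and this was not tested. On chromosome 9 the triplet Cre09.g394473, Cre09.g394510 and Cre09.g394547 (positions 4243439 to 4264009) rose by 3.38 ± 0.32, 1.69 ± 0.11 and 1.25 ± 0.09. Cre09.g394473 was at 17.98, 14.8, 11.6 and 12.4 FPKM in batch 1 and 163, 134 and 142 FPKM in batch 2, and its neighbours were expressed above 10 FPKM in both batches.

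Roles can be given for genes of the chromosome 10 interval that was mapped for the mutation, because the study lists a description for 193 of its 313 genes. Of the 287 genes of the interval that were tested, 9 were higher (3.14%) and 3 lower (1.05%), and the median log2 difference was -0.03, beside 0.00 over all genes. The interval thus held no larger share of called genes than the genome. Cre10.g452800, described as a low-CO2-inducible protein, was at 75.1, 81.6, 69.9 and 75.8 FPKM in batch 1 and 277, 261 and 244 FPKM in batch 2. It rose by 1.78 ± 0.14 on the log2 scale (adjusted p = 1.71e-09), with the 3 cultures of batch 2 close to each other. Cre10.g459200, a plasma membrane H+-ATPase, went from 81.4, 73.2, 70.2 and 72.7 FPKM to 292, 143 and 162 FPKM, a rise of 1.35 ± 0.18 (adjusted p = 3.91e-06). Culture 5 was the highest of batch 2, and the rise was 1.03 without it.

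Cre10.g464800, a leucine-rich repeat protein, was low in both batches, at 0.234–0.293 and 0.688–0.727 FPKM, and rose by 1.16 ± 0.16, a call that was lost under quantile normalization (0.92), with a pseudocount of 1 (0.44) and with treat (limma's test against a fold of 2), and the gene was not tested under the filter at 1 FPKM. The only described gene of the interval that was called lower was Cre10.g458100, a membrane protein of the YeeE/YedE family. It was at 12.5, 65.4, 3.32 and 4.81 FPKM in cultures 1 to 4 and at 2.75, 2.56 and 2.43 FPKM in cultures 5 to 7. Culture 2 alone held most of the batch 1 signal, and the call (adjusted p = 0.00579) was lost without culture 1, without any 1 culture of batch 2, with only the 7 UVM11 libraries in the fit, with treat or without a variance trend. The log2 difference was -1.95, -2.06, -2.02 and -1.98 without cultures 1, 5, 6 and 7 in turn, and -1.16 without culture 2, where the call held (adjusted p = 0.00385; 0.000463 to 1.0 over all alternatives). The remaining 6 higher and 2 lower genes of the interval have no description.

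The described genes were also grouped by role after their values were seen. Roles were assigned by words in the descriptions, so a role can hold genes of another function. Ribosome and RNA processing, for example, includes Cre10.g452900, described as sphingomyelin phosphodiesterase related. Genes were counted at an adjusted p below 0.01 at any fold, the called genes above included. This rule was met by 21.6% (higher) and 22.0% (lower) of all genes. Of 23 genes of the ribosome and RNA processing, 11 were lower and 3 higher, with a median of -0.22. The ribosome biogenesis factor described as Peter Pan-related (Cre10.g450879) was at 12.97–14.5 FPKM in batch 1 and 7.51–8.03 FPKM in batch 2, and fell by 0.83 ± 0.07. The ribosome biogenesis factor of the CBF/Mak21 family (Cre10.g459600) went from 17.8–19.2 to 11.1–14.2 FPKM, and ribosomal protein L33 (Cre10.g462950) from 221–240.2 to 149–189.7 FPKM. The splicing factor SRp20/9G8 (Cre10.g452200) fell by 0.75 ± 0.07. By contrast ribosomal protein S24 (Cre10.g456200), one of the most abundant transcripts at 1869–2207 and 1909–2044 FPKM, had a difference of -0.07 ± 0.07 that did not pass the test. An RNA pseudouridylate synthase and a Notchless-like protein were among the 3 that were higher.

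Of 18 genes of chromatin and transcription, 7 were lower and 1 higher, with a median of -0.16. The replication licensing subunit MCM7 (Cre10.g455850) was at 42.5–45.2 FPKM in batch 1 and 34.2–40.8 FPKM in batch 2 (log2 difference -0.24 ± 0.07). A cytosine DNA methyltransferase (Cre10.g461750) was at 6.50–7.13 and 5.71–7.11 FPKM, with overlapping cultures and an adjusted p of 0.305. Of the 3 transposon- and virus-related genes tested, 0 passed in limma (1 at an unadjusted p below 0.05).

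Genes of metabolism went both ways. Of 28 genes of amino acid, lipid and redox metabolism, 8 were higher and 5 lower. Glutathione peroxidase (Cre10.g458450), which reduces peroxides, went from 105, 108, 91.9 and 94.8 FPKM to 159, 155 and 159.6 FPKM, a rise of 0.66 ± 0.12. Methionine sulfoxide reductase (Cre10.g464850), which repairs oxidised methionine, rose by 0.48 ± 0.06 and alanine aminotransferase (Cre10.g451950) by 0.71 ± 0.10. An enoyl-CoA hydratase/isomerase family gene (Cre10.g463150) fell by 0.97 ± 0.09, from 10.5–11.8 to 5.001–6.41 FPKM. Of 21 genes of membrane transport, 8 were higher and 5 lower, and of 19 protein kinases and cyclic nucleotide enzymes 7 were higher and 5 lower.

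Of 5 genes of carbon dioxide supply, photosynthesis and pigments, Cre10.g452800 among them, 2 were higher and 0 lower by this rule (2 had an unadjusted p below 0.05), and of 10 genes of flagella and motors 2 were higher and 2 lower. The Ycf32-related protein of photosystem II (Cre10.g452100) was at 301–328 FPKM in batch 1 and 383–441 FPKM in batch 2, a rise of 0.41 ± 0.06. A light-harvesting protein of photosystem I (Cre10.g452050) was at 1219.8–1305 and 1190.4–1516 FPKM, and culture 5 lay below all of batch 1 while cultures 6 and 7 lay above. The flagellar flavodoxin (Cre10.g456100) rose by 0.66 ± 0.11. Intraflagellar transport protein 25 (Cre10.g450350) and the kinesin-II-associated protein (Cre10.g449250) had differences of -0.07 and 0.10 that did not pass. Radial spoke protein 11 (Cre10.g465250), grouped with the protein kinases and cyclic nucleotide enzymes, had a difference of -0.12 that did not pass either. The beta 5 subunit of the 20S proteasome (Cre10.g461950) was at 48.0–51.4 and 46.8–49.5 FPKM, with overlapping cultures.

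**Figure D2:**
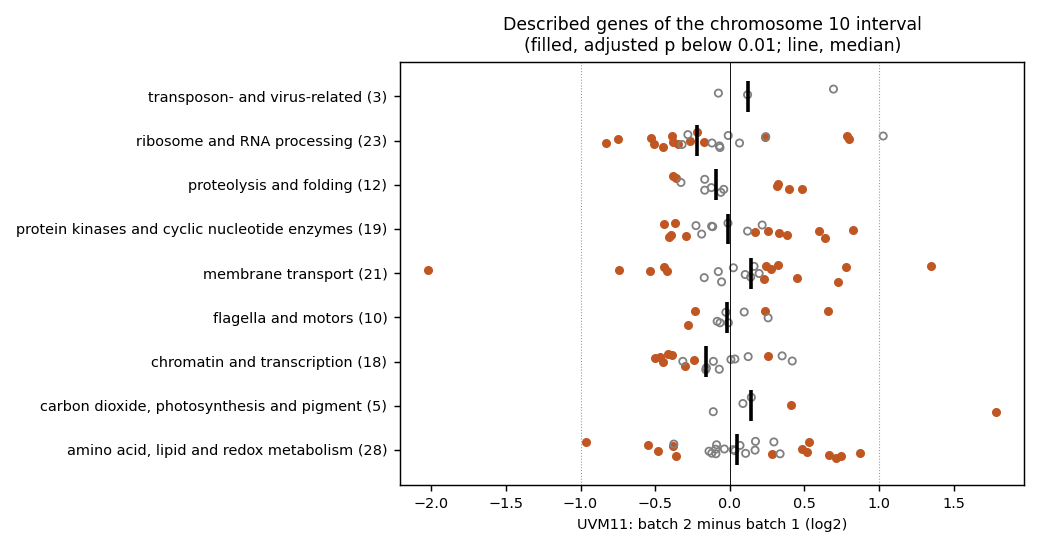
Log2 difference between UVM11 of batch 2 and batch 1 (horizontal axis) for the described genes of the chromosome 10 interval, 1 point per gene and 1 row per role with the number of tested genes, filled where the adjusted p was below 0.01, with a line at each median. The ribosome and RNA processing row has a median of -0.22 and the chromatin and transcription row one of -0.16, and most points lie between the dotted lines at -1 and 1.

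The largest falls were of genes at moderate levels that were nearly or wholly lost. Cre01.g042300 was at 4.48, 4.49, 3.92 and 4.15 FPKM in batch 1, and was listed at 0 in cultures 5 and 7 and at 0.00592 FPKM in culture 6. Cre01.g042352 was at 1.70, 1.60, 1.74 and 1.98 FPKM in batch 1 and listed at 0 in all 3 cultures of batch 2, so that no fold is given. Cre09.g386742 (chromosome 9, 191266 to 193530) had nearly the same level in all 4 cultures of batch 1, at 17.7, 17.8, 17.8 and 18.01 FPKM, and 0.471, 0.597 and 0.647 FPKM in batch 2. It fell by 4.75 ± 0.14 on the log2 scale (adjusted p = 1.55e-15).

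Among the tested genes, Cre01.g042300 and Cre01.g042352 adjoin another gene that fell, Cre01.g042450, and the 3 genes span positions 5932743 to 5982416 of chromosome 1. Cre01.g042450 went from 7.80, 7.50, 7.45 and 8.03 FPKM to 0.707, 0.593 and 0.630 FPKM, a difference of -3.39 ± 0.11. This was the only triplet of lower genes, beside 3 pairs and 157 single genes. The same 3 genes were expressed in every batch 1 culture of the other strains, Cre01.g042300 at 4.32–4.84 FPKM in Elow47 and 6.82–7.22 FPKM in UVM4. Both complemented strains had it at 0 in each of their 6 cultures. The loss was thus present in all 3 groups of batch 2, which are UVM11 and lines made from it, and in none of batch 1.

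The genes on either side of the triplet were transcribed in both batches. Cre01.g042250, which precedes it, was at 1.36–1.87 FPKM in batch 1 and 0.894–1.02 FPKM in batch 2, and Cre01.g042550, the next tested gene after it, at 41.1–43.3 and 37.2–39.6 FPKM. Beyond Cre01.g042550, the triplet Cre01.g042600, Cre01.g042650 and Cre01.g042700 (positions 6010670 to 6024465) rose instead. Cre01.g042600 went from 0.0460, 0.107, 0.0244 and 0.0736 FPKM to 1.40, 0.628 and 0.549 FPKM and Cre01.g042650 from 0.0417–0.0964 to 0.444–1.17 FPKM. Cre01.g042700 went from 0.731, 0.533, 0.682 and 0.461 FPKM to 7.58, 7.43 and 4.48 FPKM, a rise of 3.21 ± 0.24. The next gene, Cre01.g042750, was abundant in both batches, at 875–905 and 603–731 FPKM.

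**Figure D3:**
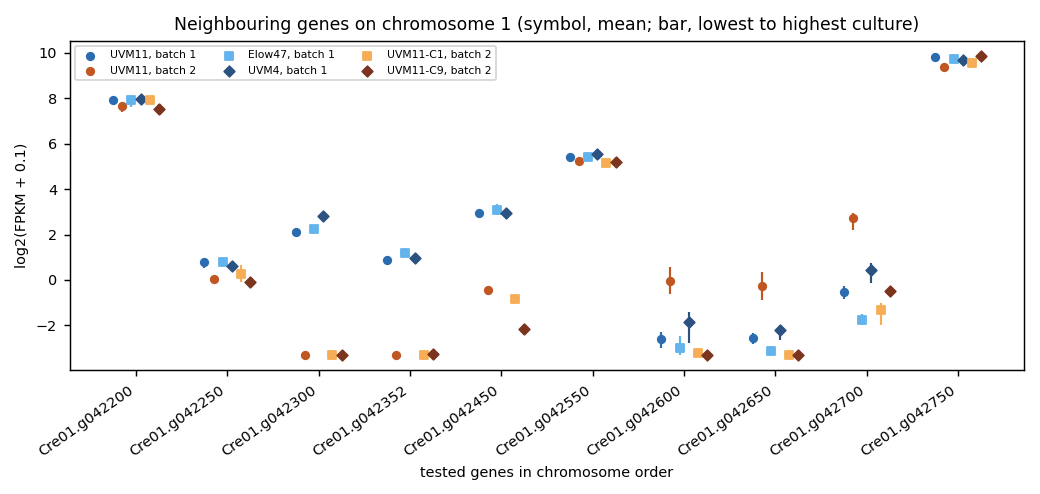
Levels of 10 tested neighbouring genes on chromosome 1, in chromosome order, as log2(FPKM + 0.1), with a symbol at each group mean and a bar from the lowest to the highest culture. Cre01.g042300, Cre01.g042352 and Cre01.g042450 are high in the 3 groups of batch 1 and low in the 3 groups of batch 2, and Cre01.g042600, Cre01.g042650 and Cre01.g042700 are highest in UVM11 of batch 2.

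Other genes fell without neighbours. Cre01.g026350 went from 4.60–4.97 to 0.241–0.295 FPKM, Cre16.g652200 from 12.4–20.2 to 1.14–1.25 FPKM, and Cre08.g364100, one of the more abundant genes that fell, from 72.9, 67.8, 82.1 and 77.9 FPKM to 11.9, 15.04 and 16.9 FPKM. Cre05.g236039 varied widely within batch 1, over 25.7–98.9 FPKM, and was at 4.69–7.42 FPKM in batch 2. These genes were chosen after their values were seen, and the groups did not overlap in any of them.

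The most abundant gene that fell was Cre12.g546550 (chromosome 12, 8671306 to 8675189), at 1387, 1445, 1566 and 1548 FPKM in batch 1 and 348, 658 and 626 FPKM in batch 2. It fell by 1.504 ± 0.17, and the neighbour Cre12.g546500 fell by 1.23 ± 0.11, going from 123–144 to 48.4–64.0 FPKM. The gene on the other side, Cre12.g546600, was at 22.9–29.1 FPKM in batch 1 and 23.7–38.4 FPKM in batch 2, and its difference of 0.09 ± 0.17 did not pass the test. In UVM11-C1 and UVM11-C9 Cre12.g546550 was lower still, at 135 ± 2.75 and 103 ± 20.7 FPKM (SD, n = 3 each), beside 1801 ± 234 FPKM in Elow47 (SD, n = 4).

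Whether the batch difference of UVM11 also held in other strains was asked with the 14 cultures that are not UVM11, as the mean of UVM11-C1 and UVM11-C9 minus the mean of Elow47 and UVM4. No culture is shared between both comparisons. But this one also contrasts complemented lines made from UVM11 with Elow47 and UVM4, so strain and batch cannot be told apart in it. It gave 618 higher (4.01%) and 149 lower (0.966%) genes. Of the 640 genes higher in UVM11 of batch 2, 361 were also higher here, which is 56.4% of the UVM11 list and 58.4% of the other, and 4 were lower. Of the 166 lower genes, 51 were also lower, 30.7% and 34.2% of the lists, and 2 were higher. All 23 genes that rose by more than 5 in UVM11 also rose in the other strains.

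The most raised genes were also high in the other cultures of batch 2. Cre04.g223100 reached, in complemented lines C1 and C9, 1095 ± 123 and 1028 ± 135 FPKM (SD, n = 3 each), and Cre10.g452800 reached 337 ± 16.8 and 370.4 ± 5.35 FPKM. Within batch 1, Elow47 culture 3 was the highest culture of its strain in 21 of the 23 genes. The median level of the 23 genes was 1.55 FPKM in this culture and 0.216 to 0.258 FPKM in the other 3 of Elow47. Without Elow47 culture 3 the comparison of the other strains gave 666 higher and 166 lower genes.

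**Figure D4:**
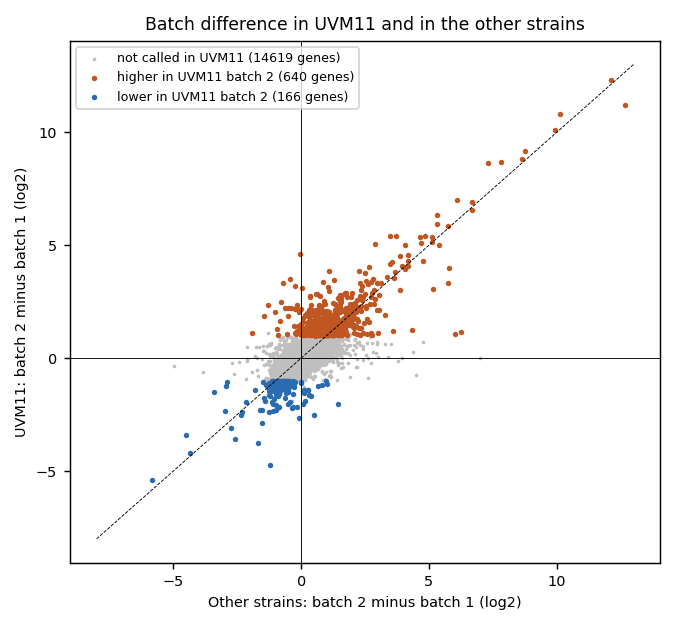
Batch 2 minus batch 1 on the log2 scale for each of the 15425 tested genes, in the other strains (horizontal axis) and in UVM11 (vertical axis), with the genes called in UVM11 coloured and a dashed line where both differences are equal. The genes with the largest rises lie near the dashed line, and a further set of called genes lies near the vertical line at 0.

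The size of the batch difference was then compared between UVM11 and the other strains, gene by gene. It was more positive in UVM11 for 163 genes (1.06%) and more negative for 146 (0.947%). For 534 of the 640 higher and 138 of the 166 lower genes this test of the difference was not passed, which does not show that the differences were equal. Cre09.g386742 fell by 4.75 ± 0.14 in UVM11. In the other strains, where it was low in both batches, the difference was -1.21 ± 0.10. That value rests on UVM4, at 0.509 ± 0.0113 FPKM (SD, n = 4). Elow47 of batch 1 was at 0–0.0249 FPKM, as low as C1 (0–0.0193 FPKM) and C9 (0–0.0405 FPKM) of batch 2. The UVM11 difference minus that of the other strains was -3.54 ± 0.17 (adjusted p = 5.45e-12). For Cre12.g546550 the fall was smaller in UVM11, by 1.92 ± 0.20 on the log2 scale (adjusted p = 1.07e-06). The raised triplet on chromosome 1 was not called higher in the other strains. The difference for Cre01.g042700 was 3.46 ± 0.29 (adjusted p = 3.47e-08). The complemented lines C1 and C9 had this gene at 0.298 ± 0.125 and 0.613 ± 0.0866 FPKM (SD, n = 3 each). Cre01.g042700 and Cre09.g386742 are among the 18 genes that the study chose on these libraries. Their values in this comparison, p-values included, are therefore no independent evidence.

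Genes that were higher in UVM4 than in Elow47 in batch 1 form a list whose contrast holds no UVM11 culture. But the filter at a mean above 0.1 FPKM and the variance estimate used all cultures, UVM11 included. A gene could therefore enter through its UVM11 levels. Cre07.g326626 was at 12.1–13.9 FPKM in UVM11 of batch 1, 0.0230–0.234 FPKM in UVM4 and 0 in Elow47. It is counted among the lower genes, so the lower share depends in part on the filter. This list held 152 genes (0.985% of those tested), of which 37 were higher (24.3%) and 20 lower (13.2%) in UVM11 of batch 2 than of batch 1, beside 4.15% and 1.08% over all genes. The median log2 difference was 0.36, beside 0.00 over all genes. The list includes all 18 genes that the study chose on the UVM11 libraries, which are described below. Those 18 genes, Cre11.g467713 among them, supply 11 of the 37 higher and 4 of the 20 lower genes. The 2 sets of counts are thus not separate results. Cre11.g467713 rose the most, from 0.205, 0.418, 0.0435 and 0.460 FPKM to 7.63, 8.09 and 8.96 FPKM, by 4.63 ± 0.39. Cre04.g213950 went from 0.174–0.307 to 3.26–4.34 FPKM. Cre09.g401450 was at 0.263, 0.251, 0.269 and 0.169 FPKM in UVM11 of batch 1 and 3.38, 3.58 and 2.96 FPKM in UVM11 of batch 2, so that only the second UVM11 set reached the 2.96–3.44 FPKM of UVM4. In the other direction Cre15.g643028 was at 0.561, 0.593, 0.672 and 0.651 FPKM in batch 1, close to the 0.6004–0.693 FPKM of UVM4, and at 0.0299, 0.0202 and 0.0303 FPKM in batch 2. The low level was not shared by all lines of batch 2. UVM11-C1 had this gene at 0.924–0.932 FPKM and UVM11-C9 at 0.0812–0.142 FPKM. Cre16.g670000 fell by 2.41 ± 0.18. Genes that distinguished UVM4 from Elow47 thus differed between the UVM11 batches in both directions.

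The study chose 18 genes that were higher in both mutants than in Elow47 and lower in the complemented strains than in UVM11. The choice used these UVM11 libraries, so the 18 genes are no independent evidence of a direction. Between the UVM11 batches, 11 of them were higher (61.1%), 4 lower (22.2%) and 3 not called, beside 4.15% and 1.08% over all genes, and the median difference was 1.33. Cre13.g606300, a 2'-5' oligoadenylate synthase, was at 0.619, 0.852, 0.725 and 1.15 FPKM in batch 1 and 17.9, 6.52 and 8.88 FPKM in batch 2. It rose by 3.48 ± 0.29 (adjusted p = 6.35e-09), and culture 5 was the highest. The pherophorin gene Cre17.g729101, of a family of extracellular matrix glycoproteins, went from 0.321, 0.454, 0.380 and 0.317 FPKM to 1.69, 2.28 and 2.35 FPKM, a rise of 2.23 ± 0.17. Cre05.g245500, a flagellar associated protein with ankyrin repeats, rose by 1.35 ± 0.16 and Cre14.g630000, a ketoacid isomerase-like protein, by 1.59 ± 0.17.

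Among those of the 18 genes that have no described role, Cre12.g541550 reached the highest level, from 5.49, 4.70, 3.84 and 4.37 FPKM in batch 1 to 76.0, 32.6 and 46.7 FPKM in batch 2. Cre07.g326626 fell from 13.4, 13.9, 12.2 and 12.1 FPKM to 2.53, 2.73 and 3.004 FPKM, by 2.19 ± 0.23. The serine/threonine protein kinase gene Cre01.g041752 and Cre16.g667550 also fell, by 1.19 ± 0.22 and 1.67 ± 0.22, and the 4 genes that fell include Cre09.g386742. The genes Cre11.g474650, Cre14.g613100 and Cre17.g742800 were not called, with differences of 0.47, 0.80 and 0.20.

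**Figure D5:**
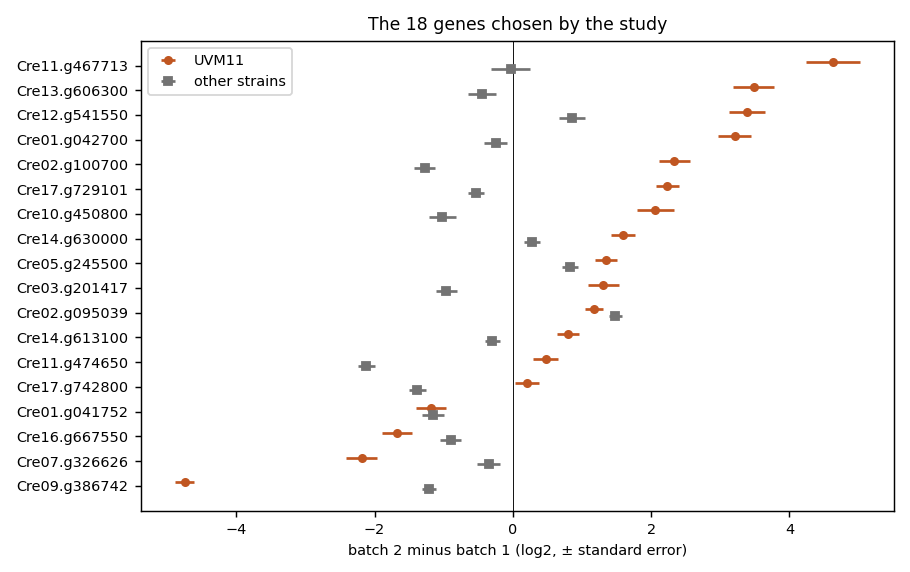
Batch 2 minus batch 1 on the log2 scale (horizontal axis, with the standard error) for the 18 genes chosen by the study, in UVM11 (circles) and in the other strains (squares). In UVM11 the values run from -4.75 for Cre09.g386742 to 4.63 for Cre11.g467713.

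Histone deacetylase genes encode enzymes that remove acetyl groups from histones. Of the 17 genes, SRTA and its 2 fellow sirtuins included, 0 were called by limma (11 had an unadjusted p below 0.05), beside 4.15% and 1.08% over all genes, and their median log2 difference was -0.11. At an adjusted p below 0.01 without a fold, 5 were lower and 0 higher, beside 22.0% and 21.6% over all genes. HDA3 (Cre03.g162050) went from 4.52–5.03 to 2.48–2.83 FPKM, a difference of -0.82 ± 0.09, and HDA11 (Cre11.g469600) from 8.75–9.18 to 4.67–6.03 FPKM, a difference of -0.69 ± 0.07. HDA12 (Cre11.g477800), HDA2 (Cre03.g160000) and HDA9 (Cre11.g467751) had differences of -0.54, -0.34 and -0.20. The most abundant member, HDA7 (Cre09.g387393), was at 30.4–32.3 FPKM in batch 1 and 30.4–31.6 FPKM in batch 2, with overlapping cultures. The sirtuin genes SRTB (Cre12.g524650) and SRTC (Cre05.g234663) had differences of 0.15 and -0.15 that did not pass at either rule.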

How the data were processed

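RNA-seq was measured in 21 libraries, 7 of them of UVM11. The authors deposited FPKM values for 17741 gene models of annotation v5.5, made per the labels and the study's methods with STAR 2.4.0j and Cuffdiff 2.2.1. Depth in fragments is unknown, and only relative depths could be read from the steps between low values. The labels and the methods name different library kits. The study calls the replicates biological. Whether each was a separate culture is not given in the sources used here, so p-values measure the spread between these samples, called cultures here.

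Values were tested as log2(FPKM + 0.1), a scale that understates changes of low genes, for genes with a mean above 0.1 FPKM, with limma 3.58.1 (R 4.3.3, empirical Bayes with variance trend, 15 residual degrees of freedom) in 1 model of the 6 groups, with Benjamini-Hochberg adjustment over 15425 genes. The study tested counts with another tool, and these were not used here. Calls needed a fold over 2 and an adjusted p below 0.01. The script was tested on simulated data.

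The gene sets, lists and tests were chosen with earlier results of these data known. The rule for named genes was SRTA, the 3 largest changes in each direction without overlap, up to 4 called genes of each list and the 18 genes of the study. Other genes were named after their values were seen, as were the roles on chromosome 10. Lists that needed gene symbols could not be matched. Positions came from RefSeq's table of assembly v5.5, which matched 17738 genes. Alternatives were the pseudocount, the filter, 2 scalings, the fitted libraries, limma's treat, an adjusted p below 0.05, no variance trend and leaving out each library.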

Additional observations from a re-analysis of the deposited data

Results flagged for a closer look

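Among the 4 cultures of a batch 1 group, 1 value stood apart from the others by Dixon's test in 11 of 105 sets of values checked. About 1 in 20 would be flagged among independent normal values. But a gene above 0 in only 1 of the 4 cultures is always flagged, and most sets share the same cultures. The 11 sets are therefore not read as an excess. Cre10.g458100, the YeeE/YedE family membrane protein, was at 65.4 FPKM in culture 2 of UVM11. The splicing factor gene Cre10.g452200 was at 3.84 FPKM in culture 4, the flavodoxin gene Cre10.g456100 at 15.6 FPKM in culture 2 and the intraflagellar transport gene Cre10.g450350 at 21.6 FPKM in culture 4. The single values above 0 of Cre12.g555700 (0.0326 FPKM) and Cre08.g367500 (0.0257 FPKM) also stood apart. Cre09.g394510 was at 11.01 FPKM and HDA2 (Cre03.g160000) at 10.7 FPKM in culture 3, and HDA14 (Cre16.g673150) at 7.78 FPKM in culture 2. The share of the FPKM sum in the 640 genes higher in UVM11 of batch 2 was 0.935% in Elow47 culture 3, beside 0.572% to 0.597% in the other 3 Elow47 cultures. In UVM4 it was 0.676% in culture 2, beside 0.587% to 0.601%.

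The batch difference of UVM11 differed from that of the other strains for 24 of the 102 named genes tested. The rule was a log2 difference over 1 and an adjusted p below 0.01 in limma. Over all 15425 tested genes it was met by 1.06% (more positive in UVM11) and 0.947% (more negative). Named genes were picked for large changes, from the study's list or after their values were seen. Their count is therefore no result about UVM11. Beside Cre01.g042700 (3.46), its raised neighbours Cre01.g042600 and Cre01.g042650 differed by 3.27 and 2.87. Cre01.g042450 fell less in UVM11 (1.11), as did Cre12.g546500 (1.72) and Cre12.g546550 (1.92), and Cre12.g546600 differed by 1.88. Cre09.g386742 (-3.54), Cre15.g643028 (-3.01), Cre01.g026350 (-2.09), Cre07.g326626 (-1.84) and Cre16.g670000 (-1.13) were more negative in UVM11. Cre09.g401450 was more positive by 4.03.

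Cre01.g042700, Cre07.g326626 and Cre09.g386742 belong to the 18 genes of the study, which were chosen on these libraries. A further 11 of the 18 were more positive in UVM11. Cre11.g467713 differed by 4.66, the oligoadenylate synthase gene Cre13.g606300 by 3.92, Cre02.g100700 by 3.61 and Cre10.g450800 by 3.08. The pherophorin gene Cre17.g729101 differed by 2.76, Cre11.g474650 by 2.59, Cre12.g541550 by 2.53 and Cre03.g201417 by 2.27. Smaller differences were those of Cre17.g742800 (1.59), Cre14.g630000 (1.31) and Cre14.g613100 (1.10).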

How the results depend on the processing

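The calls between the UVM11 batches were 640 higher and 166 lower. A pseudocount of 1 gave 318 and 60, limma's treat at a fold of 2 gave 171 and 30, and a filter at a mean above 1 FPKM gave 434 and 110, with fewer genes tested. For the other strains (618 and 149) a pseudocount of 1 gave 279 and 48, treat 256 and 37, and the filter 406 and 110. For the difference between both (163 and 146) a pseudocount of 1 gave 84 and 66, and treat 28 and 41. The other settings kept every count within 1.5 times. Leaving out each UVM11 culture in turn gave 572 to 668 higher and 157 to 189 lower genes, and 133 to 154 and 133 to 146 for the difference. Leaving out each other culture gave 599 to 666 and 144 to 166 for the other strains.

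No called difference of a named gene between the UVM11 batches changed sign under any setting run. Calls of named genes were lost for 9 genes with a pseudocount of 1, among them Cre01.g042600 and Cre01.g042650, and for 14 with treat, among them Cre10.g459200, Cre12.g546500 and Cre12.g546550. The median of the 18 genes of the study (1.33) was 0.78 with a pseudocount of 1 and 3.21 with the filter at 1 FPKM. No paired analysis was possible because UVM11 of batch 1 and of batch 2 share no replicate number. Few cultures, unknown depth in fragments and the single clone per strain limit these comparisons, and the causes of the changes between settings were not tested.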
